A study of Drosophila melanogaster with 42 samples.

Results

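The *roX1* and *roX2* genes of *Drosophila melanogaster*, with 30 kb on each side, were examined in 6 lists of ChIP-seq peaks for the proteins MSL1, MSL2 and MSL3. Every deposited peak, called a record here, that overlapped chrX:3827230-3892697 around *roX1* or chrX:11549065-11610432 around *roX2* was taken (dm6 assembly). This gave 102 of the 39130 records in the 6 lists, and of the 11696 records on the X chromosome. The *roX1* window held 41 of them and the *roX2* window 61. The windows were set by gene position alone, so that no measured value decided which records entered. The genes themselves were chosen with earlier results of these data known.

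The flies of all 6 lists lacked endogenous MSL1 (the null combination *msl-1* L60/*msl-1* γ269) and made wild-type MSL1 from a transgene driven by the ubiquitous *Ubi-p63E* promoter at site 86Fb. M1[WT]+MSL2 females carried 1 copy of *Ubi:msl-1 WT* and 1 copy of *Ubi:msl-2 WT-FLAG*, which gives them the MSL2 protein that females normally do not make. M1[WT] males carried *Ubi:msl-1 WT* on both chromosomes and their own *msl-2* gene. Chromatin came from whole adult flies, 3 days old by the labels, pooled within a sample, so that a mixture of all tissues was measured. The male MSL1 list came from 1 library and each of the others from 2. The genotype label of MSL3 in males names the female genotype while its title and sex label name M1[WT] males, and the title was followed. The lists were of unequal length, with 905 (MSL1), 2460 (MSL2) and 1546 (MSL3) records in females, against 21980, 6110 and 6129 in males. No list gave values labelled by fly or library, so no test between sexes or proteins was possible, and every comparison below is a description. In 5 lists each record also carries the summits of the 2 inputs that the reproducibility step had compared, and their −log10 p. The differences between these inputs are the only spread that can be given. The paper ran that step on true replicates and on pseudoreplicates, and the lists do not say which the inputs were. This spread may therefore leave out variation between libraries. In both windows every female record has the summit and −log10 p of its first input.

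The MSL complex raises the output of the single male X chromosome. It is built on the scaffold protein MSL1 together with MSL2, MSL3, the histone H4 acetyltransferase MOF and the RNA helicase MLE, and it holds one of the long non-coding RNAs roX1 or roX2. Both RNAs are made from X-linked genes that are themselves binding sites of the complex, among the so-called high-affinity entry sites, which are rich in GA repeats and are bound by the zinc finger protein CLAMP. MSL2 binds DNA and is specific to males, since the SXL protein blocks its translation in females. MSL3 has a chromodomain and is known for its part in moving the complex from entry sites to the bodies of active genes. The stem loops of the roX RNAs that MLE and MSL2 recognise hold a short conserved stretch, the roX box.

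The strongest MSL1 and MSL2 records of each *roX* gene had their summits at one place in both sexes. In *roX1* the 4 summits lay between positions 3861326 and 3861344, a spread of 18 bp, inside an exon of the gene. In *roX2* they lay between positions 11580249 and 11580256, a spread of 7 bp, also in an exon. The sequences on the plus strand of the chromosome, 100 bp to each side of the MSL2 summit in males, are shown because all 4 summits of a gene fall inside them. Capitals mark GAGAGA and its reverse complement TCTCTC.
*roX1*, MSL2 summit in males, chrX:3861236-3861436: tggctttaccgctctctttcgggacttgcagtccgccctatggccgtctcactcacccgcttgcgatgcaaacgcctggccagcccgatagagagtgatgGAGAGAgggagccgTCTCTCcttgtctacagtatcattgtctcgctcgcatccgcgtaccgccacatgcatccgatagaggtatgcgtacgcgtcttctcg
*roX2*, MSL2 summit in males, chrX:11580149-11580349: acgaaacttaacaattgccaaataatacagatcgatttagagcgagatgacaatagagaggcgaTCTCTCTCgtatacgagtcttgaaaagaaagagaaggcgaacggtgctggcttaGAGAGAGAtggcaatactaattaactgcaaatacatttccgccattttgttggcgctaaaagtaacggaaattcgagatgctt

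At *roX1* a GAGAGA began at the MSL2 summit itself and a TCTCTC began 14 bp further along. At *roX2* a pair of overlapping TCTCTC ended 29 bp before the summit and a pair of overlapping GAGAGA began 18 bp after it, so the summit sat between GA repeats of opposite strand. The longest stretch of alternating G and A on either strand, allowing 1 other base, was 11 bp at *roX1* and 9 bp at *roX2*. Of consecutive windows of 201 bp along the X chromosome, 7.41% held GAGAGA on either strand.

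The next sequences are the same 201 bp around summits that lay elsewhere in the *roX2* window: those of MSL3 nearest to *roX2* in each sex, and the MSL2 summits beside CG1572 and in *rho-4*. They are shown because none of them holds GAGAGA or TCTCTC, and so no letter is in capitals.
MSL3 summit in females, chrX:11580646-11580846: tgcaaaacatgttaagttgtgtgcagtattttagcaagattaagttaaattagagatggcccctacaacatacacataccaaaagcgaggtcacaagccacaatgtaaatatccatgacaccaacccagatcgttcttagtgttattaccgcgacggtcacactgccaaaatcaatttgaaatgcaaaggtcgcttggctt
MSL3 summit in males, chrX:11578283-11578483: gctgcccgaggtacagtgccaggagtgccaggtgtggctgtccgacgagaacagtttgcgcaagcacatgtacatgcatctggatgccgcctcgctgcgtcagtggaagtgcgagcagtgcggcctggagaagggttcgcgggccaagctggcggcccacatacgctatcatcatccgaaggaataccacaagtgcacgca
CG1572, MSL2 summit in males, chrX:11558664-11558864: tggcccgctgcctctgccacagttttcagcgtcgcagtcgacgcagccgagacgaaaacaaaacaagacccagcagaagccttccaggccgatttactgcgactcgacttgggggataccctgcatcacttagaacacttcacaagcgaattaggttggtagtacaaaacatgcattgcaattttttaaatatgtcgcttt
*rho-4*, MSL2 summit in males, chrX:11604248-11604448: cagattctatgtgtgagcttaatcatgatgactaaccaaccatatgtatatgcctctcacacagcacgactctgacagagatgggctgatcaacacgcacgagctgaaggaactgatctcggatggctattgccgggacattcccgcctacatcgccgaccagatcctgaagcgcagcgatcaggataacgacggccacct

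GAGAGA within 100 bp of the summit was found for 10 of the 102 records, and all 10 overlapped *roX1* or *roX2*. None of the 89 records outside the genes had it. By list the count in females was 2 of 3 records for MSL1, against 26.8% of all X-linked summits of the list, 2 of 17 for MSL2 against 18.3%, and 1 of 10 for MSL3 against 6.36%. In males it was 2 of 34 for MSL1 against 11.6%, 2 of 22 for MSL2 against 20.9%, and 1 of 16 for MSL3 against 12.6%. MSL1 and MSL2 had the repeat at both genes in both sexes, and MSL3 had it at *roX1* only.

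The letters of the roX box, GTTNTACG, were searched on both strands of the genes. The sense strand of *roX1*, which runs from high to low coordinates, held 3 matches and that of *roX2*, which runs the other way, held 2. These are printed 5′ to 3′ on the strand of the RNA, with the box in capitals, because their distance from the summits differed between the genes.
*roX1*, chrX:3859033-3859040 with 11 bp on each side: tgctgatcaacGTTCTACGcagttcttaaa
*roX1*, chrX:3858966-3858973 with 11 bp on each side: tgtgtggaaacGTTATACGaatcttcacca
*roX1*, chrX:3858915-3858922 with 11 bp on each side: aaattgaaatcGTTATACGcctgagccgat
*roX2*, chrX:11580079-11580086 with 11 bp on each side: atatgggtaacGTTTTACGcgccttaacca
*roX2*, chrX:11580144-11580151 with 11 bp on each side: actagtgaaatGTTATACGaaacttaacaa

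In *roX1* the boxes lay 2295, 2362 and 2413 bp from the midpoint of the MSL1 and MSL2 summits, towards the 3′ end of the RNA. In *roX2* they lay only 166 and 101 bp from it, within the 3′ part of the gene. The antisense strand of *roX1* held 2 further matches and that of *roX2* none. Among windows of the X chromosome as long as *roX1*, 0.186% held 3 or more matches on the plus strand and 0.256% on the minus strand, and among windows as long as *roX2*, 0.128% and 0.122% held 2 or more.

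*roX1* (FBgn0019661, chrX:3857230-3862697, minus strand, 5468 bp, annotated as a non-coding RNA) gave the first record of its list by −log10 p for MSL1 and MSL2 in both sexes. The fold enrichment over IgG at the summit of MSL1 was 45.1 in females and 178 in males. That of MSL2 was 64.4 in females and 219 in males. MSL3 stood lower, with a fold enrichment of 5.07 and rank 167 of 1546 in females, and 51.1 and rank 8 of 6129 in males. Since the lists were normalised and thresholded separately, a fold enrichment can be ranked within a list but sets no ratio between lists.

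*roX2* (FBgn0019660, chrX:11579065-11580432, plus strand, 1368 bp, also a non-coding RNA) ranked lower than *roX1* in all 6 lists. MSL1 had a fold enrichment of 37.8 and rank 3 in females, against 40.9 and rank 20 in males. MSL2 had 24.1 and rank 16 in females, against 71.2 and rank 19 in males. The strongest MSL3 record overlapping *roX2* had 4.50 and rank 214 in females, against 13.3 and rank 225 in males. Its summit lay outside the gene, by 314 bp in females and 682 bp in males. Both genes were thus near the top of the MSL1 and MSL2 lists of both sexes, while for MSL3 only *roX1* in males was.

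The ratio of the fold enrichment of *roX1* to that of *roX2* can be taken inside a list. In females it was 1.19 (MSL1), 2.67 (MSL2) and 1.13 (MSL3), and in males 4.37, 3.07 and 3.83 for the same proteins. The *roX1* value was the higher one in every list, and the gap was smallest for MSL1 and MSL3 of females. For MSL3 the *roX2* value belongs to a summit outside that gene. The 2 inputs of a record, which may not be separate libraries, bear on how far the strength itself varied. For MSL1 in females their −log10 p was 2108 and 1994 at *roX1*, and 1839 and 1814 at *roX2*. For MSL3 in females it was 70.5 and 91.1 at *roX1*, and 59.1 and 45.7 at *roX2*, so that both genes kept their order in both inputs.

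**Figure D1:**
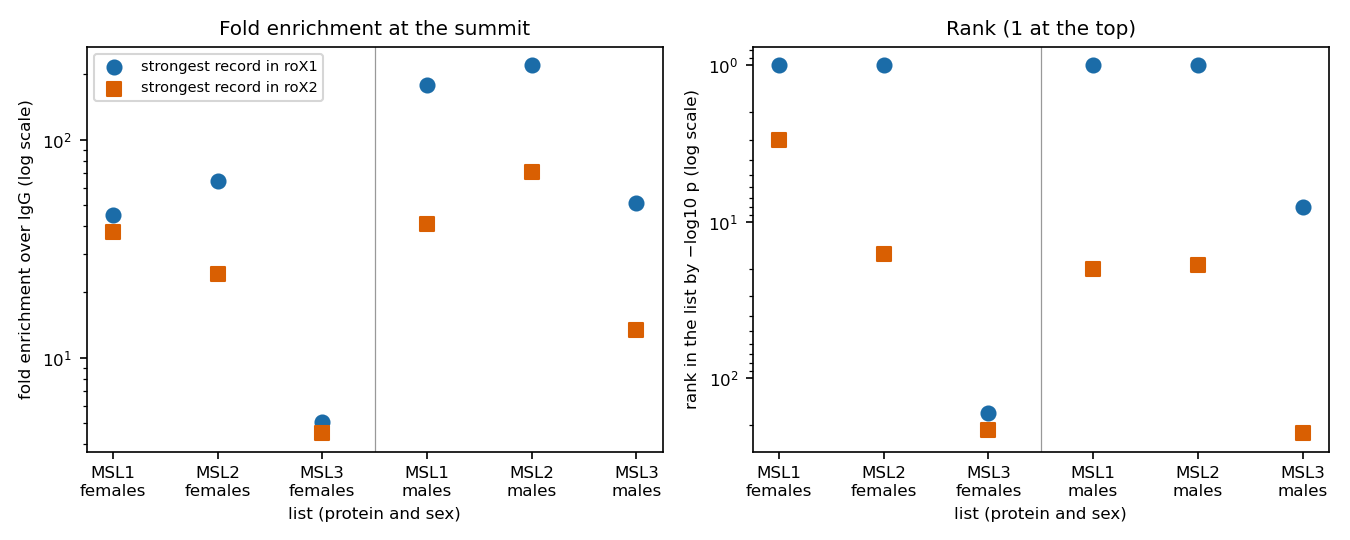
Fold enrichment over IgG (left) and rank by −log10 p (right, 1 at the top) of the strongest record overlapping roX1 (circles) and roX2 (squares). Both are on log axes, with the 3 proteins of M1[WT]+MSL2 females left of those of M1[WT] males. Each point is 1 record of a list, so there are no error bars. Records of females carry the summit and −log10 p of their first input. The MSL3 summits of the roX2 records lie outside the gene. roX1 holds rank 1 for MSL1 and MSL2 in both sexes, and both genes rank lower for MSL3, down to 214 in females and 225 in males for roX2.

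The MSL3 summit lay close to those of the other subunits at *roX1* and not at *roX2*. At *roX1* the MSL3 summit lay 31 bp above that of MSL1 and 40 bp above that of MSL2 in females, and 26 and 18 bp below them in males. The inputs of the MSL3 records differed by 56 bp in females and 13 bp in males there, so the shifts were smaller than the spread between inputs in females and larger in males. At *roX2* the MSL3 summit of females lay at position 11580746, 495 bp above the summits of MSL1 and MSL2, between *roX2* and *nod* and 26 bp before *nod*. That of males lay at 11578383, 1873 bp below the MSL1 summit and 1866 bp below the MSL2 summit, in a coding exon of *CG11695*. The inputs of these records, which may not be separate libraries, differed by 2 bp in females and 101 bp in males, less than either shift. A record has a single summit, so a lower second maximum of MSL3 at *roX2* would not be seen in the lists.

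By contrast, MSL1 and MSL2 differed by 9 bp in females and 8 bp in males at *roX1*, and by 0 and 7 bp at *roX2*. Between females and males the summit moved by 9 bp for MSL1 and 10 bp for MSL2 at *roX1*, and by 5 and 2 bp at *roX2*. For MSL3 it moved by 48 bp at *roX1* and 2363 bp at *roX2*. Of these strongest records, only that of MSL3 at *roX2* therefore had its summit in different genes or intervals in the sexes. Females had a further MSL3 record, from 11576998 to 11578767, that did not overlap *roX2*. Its summit at 11578485 lay in a coding exon of CG11695, as did the male summit at 11578383, with a fold enrichment of 2.66. In males a single record, from 11576858 to 11585318, spanned both places.

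The width of the central record differed between proteins and sexes. At *roX1* the widths of females were 1963 bp (MSL1), 790 bp (MSL2) and 734 bp (MSL3), and those of males 2069, 2155 and 4271 bp. In females these records covered 35.8%, 14.4% and 13.4% of the gene, and in males 36.8%, 37.8% and 75.9%. The male MSL3 record was the one that reached furthest into the 3′ part of *roX1*, and it was the only one to span the 3 roX boxes. At *roX2* they were 6498, 3570 and 3409 bp in females and 8236, 10778 and 8461 bp in males, in the same order of proteins. The whole of *roX2* lay in records of MSL1 in females and of all 3 proteins in males. In females MSL2 covered 48.7% of it, in a pair of records, and MSL3 covered 17.9%, at its 3′ end.

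**Figure D2:**
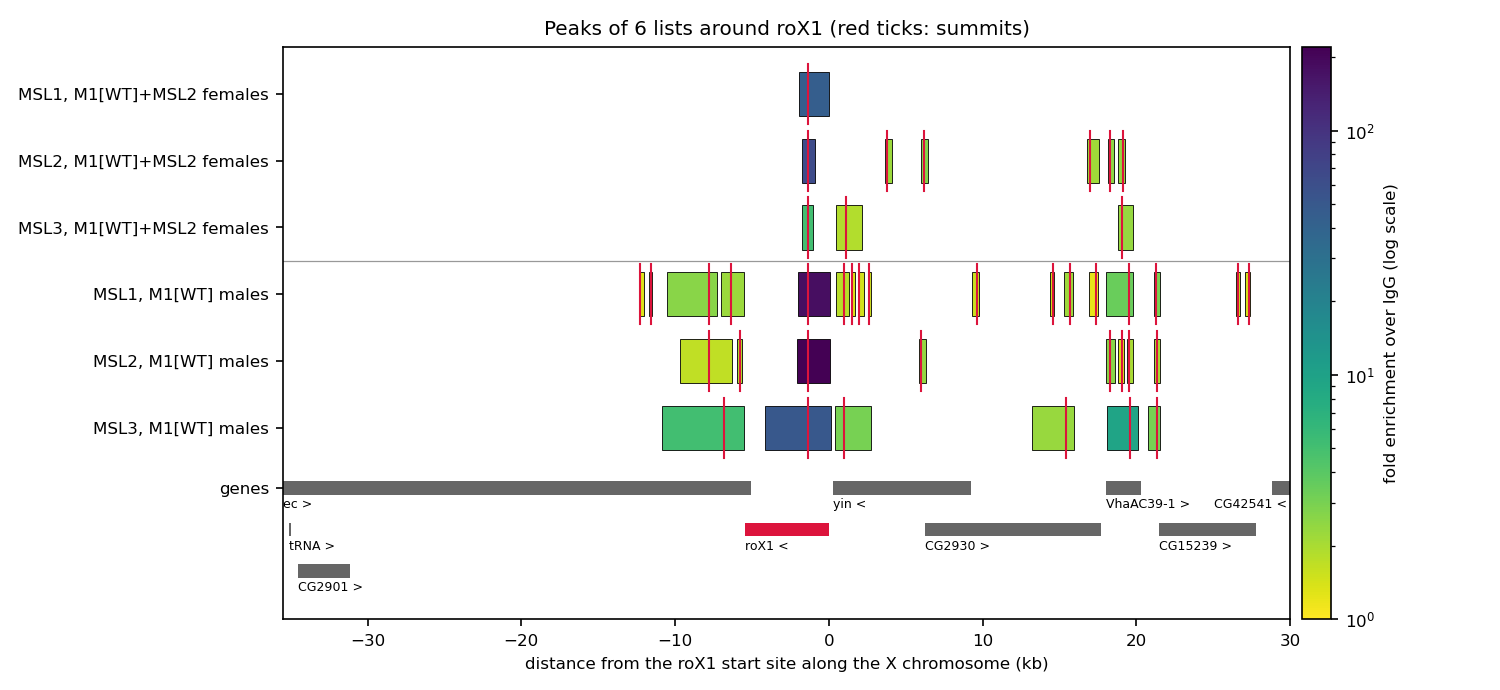
Records of the 6 lists around roX1, with distance from the roX1 start site along the X chromosome in kb on the horizontal axis and 1 row per list, M1[WT]+MSL2 females above M1[WT] males; boxes are records coloured by fold enrichment over IgG on a log scale, red ticks are summits, and genes are drawn underneath with arrows for their strand. The 10 records of females and 31 of males include 1 in each list with its summit at the same place in roX1, the far low side, inside ec, is free of records, and MSL3 of males is the widest over the gene.

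Around *roX1* there were 1 (MSL1), 6 (MSL2) and 3 (MSL3) records in females, against 17, 8 and 6 in males. The window of 65468 bp lay in records for 3.00%, 5.16% and 5.21% of its bases in females, and for 20.7%, 12.3% and 26.8% in males. The whole X chromosome lay in records for 3.27%, 5.01% and 5.59% in females, and for 15.6%, 12.4% and 17.1% in males. The same kind of window around each of the 2813 annotated X-linked genes had a median of 3.73%, 6.85% and 7.04% in females, and of 22.7%, 17.5% and 25.3% in males. In spite of the first rank of its central record, the *roX1* neighbourhood was thus covered about as much as the chromosome in general. Of the windows around X-linked genes, 54.0% to 58.4% had at least as much coverage in the lists of females and 47.6% to 61.7% in those of males.

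Around *roX2* there were 2, 11 and 7 records in females and 17, 14 and 10 in males, in the same order of proteins. The window of 61368 bp lay in records for 12.9%, 17.7% and 20.3% of its bases in females, and for 41.7%, 43.4% and 47.7% in males. These were above the medians of windows around X-linked genes in all 6 lists. Between 9.99% and 13.3% of those windows were covered at least as much in females and between 11.4% and 20.0% in males. *roX2*, with the lower peak, therefore had the more widely covered surroundings of the pair.

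**Figure D3:**
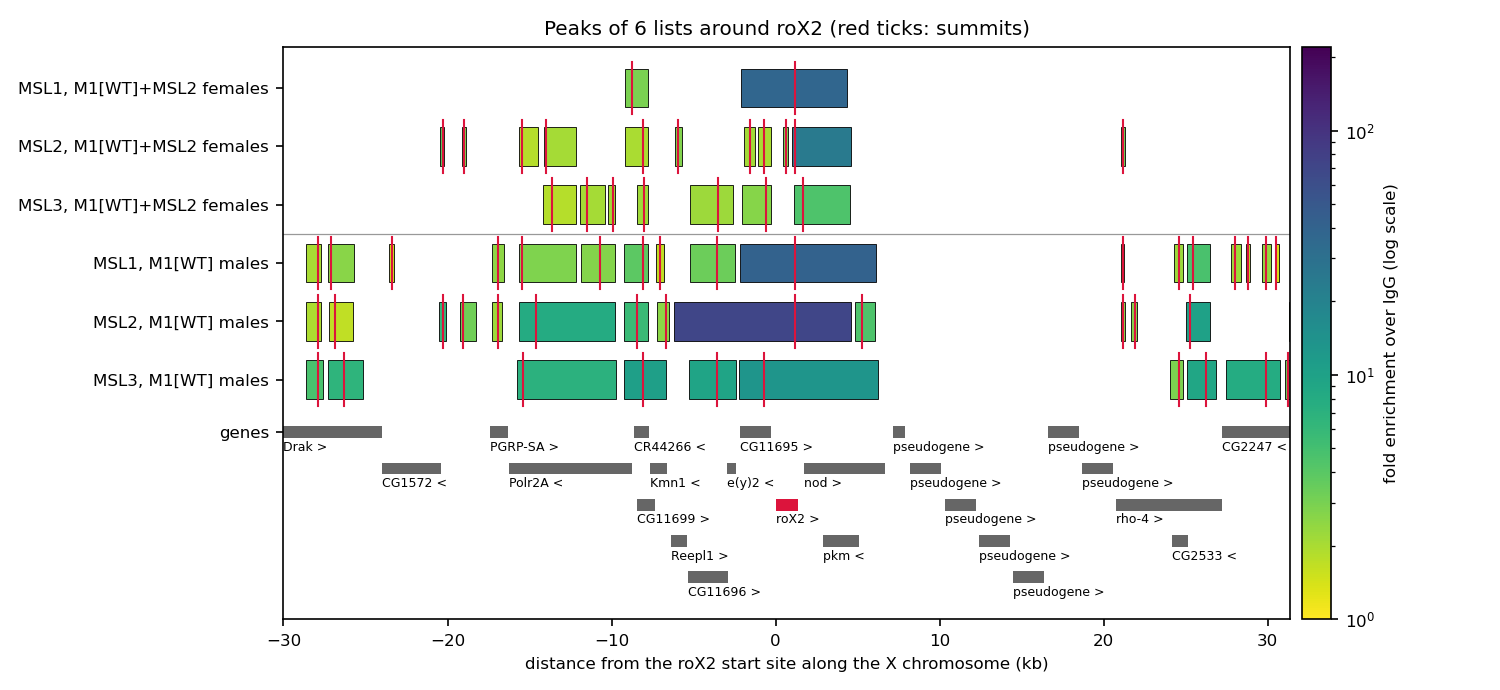
Records of the 6 lists around roX2, drawn as for roX1 (horizontal axis in kb from the roX2 start site along the X chromosome, M1[WT]+MSL2 females above M1[WT] males, colour for fold enrichment on a log scale, red ticks for summits). The MSL1 and MSL2 summits line up in roX2, the MSL3 summits do not, and no list has a record over the row of pseudogenes to the right.

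In males coverage was highest within 5 kb of both genes and lower beyond. Within 2 kb of the ends of *roX1* the lists of females covered 0.075% (MSL1), 0% (MSL2) and 39.1% (MSL3) of the bases, and those of males 71.9%, 39.8% and 92.3%. From 2 to 5 kb the values were 0%, 8.32% and 2.5% in females, and 57.8%, 37.0% and 62.3% in males. From 5 to 10 kb the lists of males had 10.4%, 4.95% and 4.00%. At *roX2* the first 2 kb were covered for 100%, 86.5% and 92.6% in females and wholly in males. From 2 to 5 kb the values were 18.8%, 20.1% and 60.8% in females, against 89.6%, 90.6% and 94.1% in males. MSL3 of females thus covered more of the next 3 kb around *roX2* than MSL1 and MSL2 of the same flies. From 5 to 10 kb around *roX2* the lists of males had 24.0%, 36.6% and 31.5%, and from 20 to 30 kb 31.2%, 23.4% and 47.0%. The upper side of *roX2* from 5 to 20 kb lies almost wholly between 11585319 and 11600088, where no list had a record. Only 4.53% of the 31-base words there occurred once in the assembly, so lower coverage from 5 to 20 kb cannot be read as less binding.

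**Figure D4:**
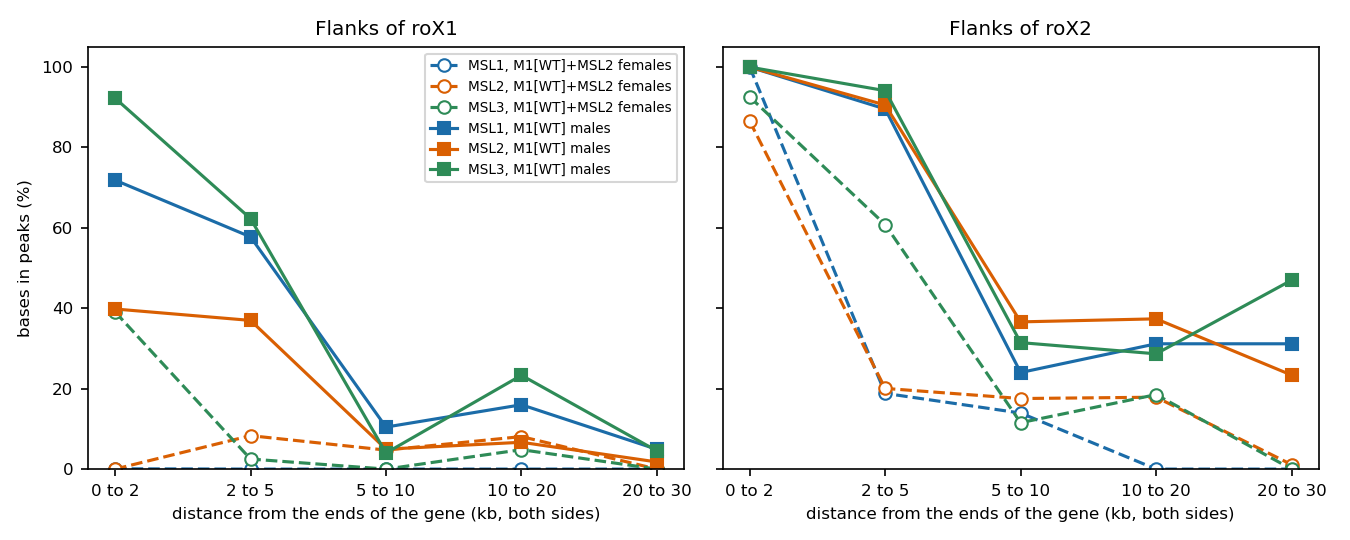
Percent of bases in records by distance from the ends of roX1 (left) and roX2 (right), both sides together, in bins from 0 to 30 kb, 1 colour per protein, for M1[WT]+MSL2 females (dashed lines, open circles) and M1[WT] males (solid lines, squares); each point is 1 list, so there are no error bars. Male lists stay above the female lists of the same protein in the bins within 5 kb of both genes (apart from MSL1 in the first 2 kb of roX2, 100% in both sexes), and MSL3 of females at 2 to 5 kb from roX2 has 60.8% against 18.8% and 20.1% for MSL1 and MSL2. From 5 to 20 kb the upper side of roX2 lies almost wholly in a stretch without records whose sequence is mostly repeated in the assembly.

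Within a sex, MSL3 covered more bases than either other protein in both windows with the lists as deposited. In females this order did not hold at equal list length, where both windows together lay in MSL3 records for 6.75%, against 7.77% for MSL1, nor in the stronger 50% of each list, with 4.66% against 6.67%. In females it covered 3414 bp around *roX1*, 1451 bp more than MSL1 and 36 bp more than MSL2, and 12457 bp around *roX2*, 4565 and 1571 bp more. In males it covered 17553 bp around *roX1*, 3969 bp more than MSL1 and 9490 bp more than MSL2, and 29295 bp around *roX2*, 3682 and 2679 bp more. The bases in MSL3 records with neither MSL1 nor MSL2 made up 65.4% of its coverage in females and 33.8% in males at *roX1*, and 37.0% in females and 14.0% in males at *roX2*. Over both windows the records of females outside the genes had a median width of 1394 bp (MSL1, 1 record), 485.5 bp (MSL2) and 1610.5 bp (MSL3), and those of males 516, 572.5 and 2234 bp.

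The records outside the genes were far weaker than the central ones for MSL1 and MSL2 and less so for MSL3. A second MSL2 record of females inside *roX2*, with its summit at 11579676, had a fold enrichment of 2.99, within the range of the records outside. The fold enrichment outside the genes was, in females, 2.99 for the single MSL1 record, 1.81 to 3.86 for 14 MSL2 records and 1.81 to 2.66 for 8 MSL3 records. In males it was 1.22 to 4.69 for 32 MSL1 records, 1.37 to 9.95 for 20 MSL2 records and 2.31 to 10.7 for 14 MSL3 records. The strongest record outside *roX2* by −log10 p reached a fold enrichment that the central record exceeded 12.7 (MSL1), 6.25 (MSL2) and 1.69 (MSL3) times in females, and 8.71, 7.16 and 1.40 times in males. Around *roX1* the same ratio was 26.9 (MSL2) and 2.17 (MSL3) in females, and 52.6 (MSL1), 83.7 (MSL2) and 5.39 (MSL3) in males. MSL3 had the smallest ratio in each sex at both genes. At *roX2* the central MSL3 record had its summit outside the gene in both sexes. Of the male MSL1 records, 10 had a −log10 q under 2, as had 1 male MSL2 record and no other.

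Summits of MSL3 lay mostly in coding exons, as on the whole X chromosome. In females 8 of 10 MSL3 summits did, against 73.6% of all X-linked summits of that list, and in males 14 of 16, against 65%. For MSL2 it was 9 of 17 in females, against 48.1%, and 10 of 22 in males, against 41%. For MSL1 it was 0 of 3 in females, against 30.8%, and 29 of 34 in males, against 60.1%. The counts of MSL1 and MSL3 in males stood above the share of the whole chromosome, and those of MSL2 in both sexes and MSL3 in females close to it. The records are few and several lie over the same gene, so the higher counts in males may not be particular to these windows.

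Nearly all records of females had a counterpart in males, as on the whole chromosome. All 3 MSL1 records of females overlapped an MSL1 record of males, where the X chromosome had 95.4%, 15 of 17 MSL2 records did, against 82.9%, and all 10 MSL3 records did, against 96.5%. The MSL2 records of females with no male counterpart were both in the *roX1* window. In the other direction 3 of 34 MSL1 records of males overlapped one of females (12.7% on the X chromosome), 10 of 22 MSL2 records did (42.7%) and 7 of 16 MSL3 records did (37.1%). Summits of females lay within 100 bp of a male summit for 2 of 3 MSL1 records (68.6%), 7 of 17 MSL2 records (47.8%) and 3 of 10 MSL3 records (41.2%).

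The share of MSL3 records that overlapped those of the other proteins was close to that of the whole X chromosome, given in parentheses. In females 4 of 10 overlapped an MSL1 record (39.3%) and 6 of 10 an MSL2 record (58.6%). In males 15 of 16 overlapped an MSL1 record (90.7%) and 12 of 16 an MSL2 record (75.8%). The MSL3 summit came within 100 bp of an MSL1 summit in 1 of 10 cases in females (16.6%) and 10 of 16 in males (64.5%), and of an MSL2 summit in 4 of 10 in females (33.4%) and 4 of 16 in males (40.4%). For MSL1 against MSL2 the count was 2 of 3 in females (59.2%) and 8 of 34 in males (34%). With so few records, these counts are too small to be separated from the shares of the whole chromosome.

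The windows overlapped 31 annotated genes other than *roX1* and *roX2*, 8 around *roX1* and 23 around *roX2*. In females 7 of them had a record of MSL1, 14 one of MSL2 and 11 one of MSL3, against 19%, 35.9% and 28.9% of all X-linked genes. In males it was 21, 21 and 18 of 31, against 68.1%, 51.4% and 56.6%. A gene that runs past the window was scored over its whole length. The 9 genes with no record in any list were CG2901 and a proline tRNA gene near *roX1* and 7 pseudogenes near *roX2*. At least 50% of the gene lay in records for 5, 5 and 8 genes in females, against 6.9%, 10.5% and 11.9% of all X-linked genes, and for 11, 12 and 12 in males, against 33.9%, 27.9% and 41.7%, with MSL1, MSL2 and MSL3 in that order. Of these only 1 gene in each male list, and none in females, was in the *roX1* window.

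That gene was *VhaAC39-1*, which codes for a subunit of the vacuolar proton pump and starts 18051 bp from *roX1*. By −log10 p it held the strongest record outside *roX1* in all 5 lists that had one. MSL3 covered 43.5% of it in females and 92.0% in males, MSL2 38.0% in females and 59.7% in males, and MSL1 0% in females and 78.8% in males. Its fold enrichment for MSL3 was 2.33 in females and 9.48 in males (rank 919 of 1546 and rank 621 of 6129). For MSL2 the strongest record there by −log10 p had 2.39 in females and 2.61 in males, and for MSL1 in males 3.39. The summits of MSL3 lay in coding exons in both sexes, at 3881775 in females and 3882275 in males. The inputs placed that summit 501 bp apart in both sexes, so its position within the gene was not fixed by these lists.

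The genes next to *roX1* were covered in part. *yin*, a peptide transporter gene that lies 269 bp above *roX1*, was covered by MSL3 for 19.1% in females and 26.0% in males, by MSL2 for 10.8% in females and 5.52% in males, and by MSL1 for 0% in females and 17.7% in males. CG2930 was covered for 8.28% by MSL2 in females, with none of the other proteins, and for 16.6%, 0.412% and 24.0% by MSL1, MSL2 and MSL3 in males. *ec*, whose product resembles a ubiquitin protease and acts in the death of surplus eye cells, overlaps *roX1* by its 3′ end and runs far beyond the window. MSL1, MSL2 and MSL3 of males covered 11.6%, 8.34% and 12% of the whole gene, and those of females 0%, 0.126% and 0.305%. The stretch from 3827230 to 3850357, 23128 bp long and wholly inside *ec*, had no record in any list. Of its 31-base words 99.1% occurred once in the assembly, so its sequence was as unique as the rest of the window (98.7%).

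The genes next to *roX2* were covered over most of their length. CG11695, 259 bp below *roX2*, lay in records for 96.9%, 75.9% and 92.0% of its bases in females, and for 98.2%, 100% and 100% in males, for MSL1, MSL2 and MSL3. On the other side *nod*, a kinesin-like gene needed for chromosome segregation in female meiosis, had 53.6%, 57.5% and 56.7% in females and 88.0%, 82.2% and 91.3% in males. *pkm*, which lies within *nod* on the other strand and cannot be told apart from it here, had 66.9%, 75.7% and 73.9% in females and 100%, 87.2% and 100% in males. These were the only genes other than asRNA:CR44266 and CG11699 that reached 50% for all 3 proteins in both sexes.

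CG11696 and *e(y)2*, the gene of a SAGA and nuclear export subunit, lay further out and separated MSL3 from the others in females. MSL3 covered 95.5% of CG11696 and 72.6% of *e(y)2* in females, whereas MSL1 and MSL2 had no record on either. In males all 3 proteins covered them, with 96.3%, 100% and 98.7% of CG11696 and 90.3%, 100% and 99.8% of *e(y)2*. The MSL3 record of CG11696 had a fold enrichment of 2.18 in females and 9.49 in males, the male one being the strongest MSL3 record outside *roX2* in its window by −log10 p. Its summit lay in a coding exon in both sexes, at 11575578 in females and 11575483 in males. The inputs placed that summit 472 bp apart in females and 77 bp apart in males, so its position in females was not closely fixed.

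*Reepl1*, an endoplasmic reticulum shaping gene between those regions, showed the opposite order. MSL2 covered 42.0% of it in females and 83.3% in males, and neither MSL1 nor MSL3 had a record on it in either sex. In females MSL2 had a record of its own there, with a summit at 11573114, a fold enrichment of 2.80 and rank 994 of 2460. In males it was part of the record of 10778 bp that ran from 11572863 to 11583640. *Kmn1*, a kinetochore gene, had no record in females and 46.5%, 58.1% and 97.0% for MSL1, MSL2 and MSL3 in males.

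*Polr2A*, which encodes the largest subunit of RNA polymerase II, starts 8739 bp from *roX2* and was the longest gene with wide coverage. MSL3 covered 52.1% of it in females and 86.3% in males, MSL2 46.5% in females and 85.0% in males, and MSL1 5.54% in females and 80.4% in males. The only MSL1 record of females outside *roX2* had its summit in the 5′ UTR of *Polr2A*, with a fold enrichment of 2.99 and rank 477 of 905, and extended over asRNA:CR44266 (93.9%) and CG11699 (62.2%). MSL2 and MSL3 of females had a record that overlapped it, with 1.97 and 2.18 at summits 11570984 and 11571014. The overlapping record of MSL3 in males had 10.7 at 11570998, the highest fold enrichment of that list in the windows among records that do not overlap a *roX* gene. Those of MSL1 and MSL2 in males had 3.88 at 11570980 and 5.68 at 11570594. The last summit lay in asRNA:CR44266 and the others in a coding exon of CG11699, not in *Polr2A*. This was the only place around *roX2*, other than the central records, where all 6 lists had a record.

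Further out, some sites had a record of MSL2 and not of MSL3, and others had both. Beside CG1572, an intergenic MSL2 record 223 bp wide in females and 384 bp in males had its summit 112 and 110 bp from the gene, with a fold enrichment of 3.86 and rank 631 in females and 6.37 and rank 1011 in males. It was the strongest MSL2 record outside *roX2* in females, and neither MSL1 nor MSL3 had a record there in either sex. *rho-4*, a rhomboid protease gene on the far side of the pseudogenes, held the strongest outer records of MSL1 and MSL2 in males, with a fold enrichment of 4.69 and 9.95 at summits 11604481 and 11604348. The MSL3 record over the same region had 9.10 and its summit at 11605291. In females the only record on *rho-4* was one of MSL2 at 11600213, with 3.24 and rank 750. PGRP-SA, a receptor of the Toll immune pathway, had 61.7% and 53.9% of its length in MSL1 and MSL2 records of males and no MSL3.

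No list had a record between 11585319 and 11600088, a stretch of 14770 bp that begins just inside the end of *nod*. It holds 7 pseudogenes, CR43217 to CR43211, of which 6 are 1891 bp long. Only 4.53% of the 31-base words in the stretch, and 0.232% of those in the block of pseudogenes, occurred once in the assembly, against 96.9% in the part of the window below it and 97.7% in the part above. Reads that match several copies cannot be placed with certainty, and whether binding there could have been called was not tested. The percent of the *roX2* window in records therefore counts a stretch in which the absence of records cannot be read as absence of binding.

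**Figure D5:**
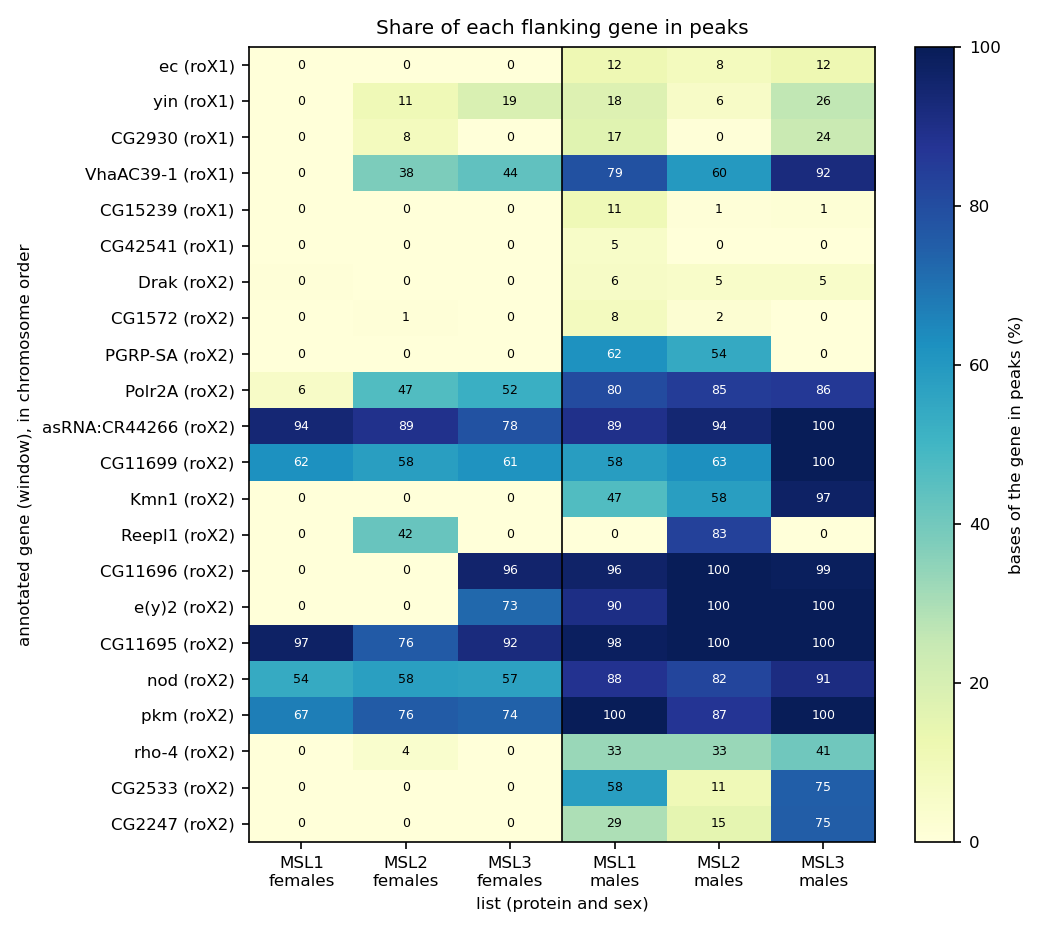
Percent of each of the 22 flanking genes with any record that lay in records of the 3 proteins, for M1[WT]+MSL2 females (left 3 columns) and M1[WT] males (right 3 columns), with genes in chromosome order and the window in parentheses; each cell is 1 list, rounded to whole percent. CG11695, nod, pkm, CG11699 and asRNA:CR44266 are dark in all columns, CG11696 and e(y)2 in females for MSL3 only, and Reepl1 for MSL2 only.

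No gene of the 31 had 50% or more of its length in male MSL3 records without an MSL1 or MSL2 record in either sex, where 1.71% of all X-linked genes did. In females the outermost record of MSL1 was that of *Polr2A*, up to 9.155 kb below *roX2*. For MSL2 it was that of CG1572, 20.438 kb below *roX2*, and for MSL3 that of *VhaAC39-1*, 19.75 kb above *roX1*. In males the records of each protein reached 28.6 kb below *roX2*. Above it they reached 29.3 kb (MSL1), 30.4 kb (MSL2) and 30.4 kb (MSL3). The windows end at 30 kb, so in both sexes these are only the outermost records inside them. With a flank of 50 kb the records of MSL1, MSL2 and MSL3 rose from 3, 17 and 10 to 4, 22 and 14 in females. In males they rose from 34, 22 and 16 to 48, 29 and 20.

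The genes of the complex and its regulators were scored in the same way. Of 9 such genes, 2 had a record of MSL1 in females, 3 one of MSL2 and 2 one of MSL3, against 5.38%, 9.8% and 6.85% of all genes on the 6 main chromosome arms. In males it was 9, 7 and 7, against 53.4%, 27.2% and 28.4%. Apart from *msl-1* and *msl-2*, whose coding sequence the transgenes carry, only *Sxl* had a record in females. Any overlap was counted, and the shares take no account of gene length. *Sxl*, the switch gene that blocks MSL2 in females, was overlapped by a record in all 6 lists, with a fold enrichment of 4.75, 3.27 and 6.93 for MSL1, MSL2 and MSL3 in females and 3.89, 4.69 and 12.3 in males. The records lay over only 0.604%, 0.140% and 0.311% of its length in females, and over 4.96%, 7.28% and 15.4% in males. Whether their summits lay inside *Sxl* was not scored, so these fold enrichments may belong to summits beside the gene. *mof*, the X-linked acetyltransferase gene, had none in females and 2.01, 1.88 and 18.3 in males. In males all 3 proteins also had records on *mle*, *Clamp*, *JIL-1*, which codes for a histone H3 kinase, and *Unr*, a partner of SXL, and only MSL1 had one on *msl-3*, with a fold enrichment of 1.45.

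*msl-1* and *msl-2* are the genes whose coding sequence the transgenes carry, and their coding and other bases were scored apart. In females records covered 96.9%, 92.5% and 88.4% of the coding bases of *msl-2* for MSL1, MSL2 and MSL3, and 12%, 8.19% and 0% of its other bases. In males, which have no *msl-2* transgene, the coding bases were covered for 16.4%, 0% and 0%. For *msl-1* all coding bases lay in records of each protein in males, and none did in females, which carry 1 copy of the same transgene. In males 23.0%, 23.1% and 5.86% of the other bases were covered. Reads from a transgene and from the native gene were not told apart, so a record on these genes cannot be placed at either.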

How the data were processed

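ChIP-seq of MSL1, MSL2 and MSL3 gave 6 peak lists from 11 of 42 libraries. The authors trimmed reads (cutadapt), mapped them to dm6 (Bowtie 2), removed duplicates (Picard) and blacklisted regions, called peaks with MACS2 against IgG and, for 5 lists, ran IDR on 2 inputs. The male MSL1 list is MACS2 output. Each deposited record has a score, a fold enrichment (a ratio to IgG), a −log10 p and a −log10 q (from p-values and q-values), a summit offset and, after IDR, the values of both inputs. Female lists carry the positions of the first input and male MSL2 and MSL3 lists mostly do not. In the windows the −log10 p of every female record was also that of its first input. That of male MSL2 and MSL3 records was the value of neither input. Female and male lists therefore differ in how their widths and ranks arose. Read numbers are not given in the lists, so depth is unknown.

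Records overlapping *roX1* or *roX2* plus 30 kb were counted, and bases in records, ranks by −log10 p and summit distances computed. Genes came from Ensembl release 115 without transposable elements, and sequences from the RefSeq X chromosome, whose length is that of dm6. The background is the same count over all X-linked records or genes. No test was run, since the lists hold no values labelled by replicate. The members and gene lists were chosen with earlier results of these data known. Named were *roX1*, *roX2*, genes within 10 kb of them, those of the strongest outer record of each list and window, those with the outermost female records, those with 50% or more of their length in male MSL3 records and no MSL1 or MSL2 record, and 9 dosage compensation genes. PGRP-SA, CG2901, the tRNA gene and the pseudogenes were added after their values were seen. Alternatives were other flanks, summits, thresholds, equal list lengths, ranks and overlap rules. Python 3.11.15, numpy 2.4.6, pandas 2.3.3, matplotlib 3.10.9 and bedtools 2.31.1 were used, and the interval functions passed 4 of 4 checks on simulated data.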

Additional observations from a re-analysis of the deposited data

How the results depend on the processing

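Of 164 alternative values for 67 results, 124 stayed within 1.5 times the reported value (for summit distances, within 100 bp), 40 moved further and 0 changed sign. Differences between lists in records and coverage depended on their length. With every list cut to its 905 strongest records, both windows together held 5 MSL2 and 4 MSL3 records in females and 3 MSL1, 4 MSL2 and 9 MSL3 records in males. Coverage then was 7.77% (MSL1), 4.04% (MSL2) and 6.75% (MSL3) in females and 9.22% (MSL1) and 16% (MSL2) in males, and flanking genes with a record numbered 5 and 6 in females (MSL2, MSL3) and 5 and 9 in males (MSL1, MSL2). The stronger 50% of each list left 6 MSL2 and 3 MSL3 records in females, covering 4.35% and 4.66% beside 6.67% for MSL1, and 21 MSL1 and 8 MSL2 records in males.

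A flank of 10 kb gave 9 MSL2 records in females and 15, 9 and 7 records (MSL1, MSL2, MSL3) in males, covering 21.0%, 18.9% and 23.9% in females and 48.1%, 44.5% and 55.8% in males. A flank of 50 kb gave 4.94% for MSL1 in females. By fold enrichment *roX1* ranked 2 for MSL1 and MSL2 in females and MSL3 in males, and *roX2* ranked 5 for MSL1 in females. Among X-linked records, MSL3 of females ranked 89 at *roX1* and 114 at *roX2*. A gap of 500 bp gave 6 male MSL1 records with a female one, an overlap of 50% gave 4 male MSL3 records, summits within 200 bp gave 5 for MSL3 of females and males, and 10% of a gene covered gave 9 genes for MSL2 of females. Without records of −log10 q under 2 no value moved past 1.5 times. Leaving out a replicate was not possible, since no value in the lists is labelled by replicate. No paired analysis was possible for the same reason, and no test was run. Depth is unknown, so a missing record can mean a level under the threshold of its list.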
